A study of Mus musculus with 20 samples.

Results

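The cecal RNA of 8 genes that mark tuft cells was described in 20 mice fed with rising levels of resistant potato starch (RPS). The genes were Dclk1, Pou2f3, Trpm5, Gfi1b, Hpgds, Avil, Sh2d6, and Sucnr1. They were chosen by name, as the rows of the count table whose Ensembl identifiers carry these symbols in GENCODE. All 8 were found among the 19887 rows, and all 8 were among the 15348 genes that passed the filter on low counts.

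C57BL/6 mice, bred in-house and about 3 weeks of age at the start, were kept for 6 weeks on the Total Western Diet (TWD). The TWD is a rodent diet composed after the nutrient intakes of Americans. The mice then received the TWD with 0, 2, 5, or 10% RPS (w/w) for 3 more weeks, and 5 mice per diet were analysed. RPS is raw starch that largely escapes digestion in the small intestine and is fermented by the bacteria of the cecum. Every mouse had thus been fed with the TWD throughout, and the mice fed with 0% RPS were the controls. The labels of these samples give neither the sex of the mice nor an experimental batch. In the text the mice of a diet are numbered 1 to 5 in the order of their label numbers.

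The libraries were made from sections of cecum tissue that hold epithelium, immune cells, and muscle, and tuft cells are a minor cell type among these. In such bulk RNA, fewer tuft cells and less RNA per tuft cell cannot be told apart. Total counts per mouse lay between 14967798 and 42687283, and levels are given as CPM (counts scaled to a common library size by TMM). A level of 3 counts, taken as the smallest that can be read, was at most 0.190 CPM. The summed level of 8 epithelial genes, among them Epcam and Krt20, was between 8556 and 13398 CPM in every mouse. Counts of the 13 mitochondrial genes took 9.0 to 11.5% of the total in 17 libraries. In the other 3 they took 13.0% (mouse 5 on 0% RPS), 13.8% (mouse 3 on 2% RPS), and 15.4% (mouse 4 on 5% RPS), and the tests of the 8 genes, their correlations, and the comparison with marker lists are also given without these libraries.

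Tuft cells are rare epithelial cells that sense chemicals in the gut lumen with a tuft of stiff microvilli. Their formation requires the transcription factor POU2F3, and they respond to luminal signals, such as succinate made by microbes and protists, through G protein-coupled receptors and the cation channel TRPM5. Activated tuft cells release interleukin 25, leukotrienes, and prostaglandins, which act on group 2 innate lymphoid cells (ILC2), and interleukin 13 from ILC2 in turn promotes the formation of more tuft and goblet cells. Of the 8 genes, Pou2f3 and Gfi1b encode transcription factors, Sucnr1 and Trpm5 encode the succinate receptor and the channel, Hpgds encodes the hematopoietic prostaglandin D synthase, Dclk1 encodes a doublecortin-like kinase that is widely used as a tuft cell marker, Avil encodes advillin, an actin-binding protein of the villin family, and Sh2d6 encodes a protein with an SH2 domain.

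On GRCm39, Pou2f3 lies at chr9:43035228-43121666 on the minus strand, Gfi1b at chr2:28499462-28511994 on the minus strand, Sucnr1 at chr3:59989283-59994987 on the plus strand, and Trpm5 at chr7:142622890-142648379 on the minus strand. Hpgds lies at chr6:65094001-65121983 on the minus strand, Dclk1 at chr3:55149618-55446493 on the plus strand, Avil at chr10:126836578-126856863 on the plus strand, and Sh2d6 at chr6:72490624-72498690 on the minus strand. All 8 are annotated as protein-coding. Exons of Trpm5 overlap those of Tssc4, and exons of Avil overlap those of Tsfm, in each case a counted gene on the opposite strand. The strand setting of the counting is not named in the sources used here, so reads of these pairs may have been divided between the genes. After subtraction of the diet means, the level of Trpm5 had a Pearson r of -0.044 with that of Tssc4 and the level of Avil an r of -0.34 with that of Tsfm over the 20 mice.

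Promoter windows of 300 bases, from 250 bases before to 50 after the annotated start, were found in the RefSeq table for 7 of the 8 genes, Pou2f3 being the exception, and Dclk1 had 2 windows. RefSeq's windows are on GRCm38.p6, an earlier build than that of the counts. Each window was searched on both strands for the octamer ATGCAAAT (ATTTGCAT on the other strand), the sequence that POU factors are known to bind. It was found in 2 of the 8 windows, those of Hpgds and Sucnr1, and in 570 of all 32851 windows (1.74%). The windows of these 2 genes are shown for the octamer, and those of Sh2d6 and Trpm5 because they had the highest median r with the other 7 members across mice (0.66 and 0.64). They are written 5' to 3' on the strand of the gene, and capitals mark the octamer.
Hpgds (chr6:65144681-65144980, minus strand): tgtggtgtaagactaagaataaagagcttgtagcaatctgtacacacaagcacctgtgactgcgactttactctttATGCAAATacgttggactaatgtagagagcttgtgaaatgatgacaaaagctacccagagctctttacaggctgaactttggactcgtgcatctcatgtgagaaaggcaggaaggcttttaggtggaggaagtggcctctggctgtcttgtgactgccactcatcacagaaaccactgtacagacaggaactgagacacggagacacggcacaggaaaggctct
Sucnr1 (chr3:60081619-60081918, plus strand): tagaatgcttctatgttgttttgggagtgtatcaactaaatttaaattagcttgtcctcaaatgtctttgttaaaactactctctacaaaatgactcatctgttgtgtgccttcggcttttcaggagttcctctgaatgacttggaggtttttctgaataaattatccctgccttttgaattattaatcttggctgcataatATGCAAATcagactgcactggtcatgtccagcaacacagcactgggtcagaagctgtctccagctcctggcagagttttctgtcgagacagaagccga
Sh2d6 (chr6:72519987-72520286, minus strand): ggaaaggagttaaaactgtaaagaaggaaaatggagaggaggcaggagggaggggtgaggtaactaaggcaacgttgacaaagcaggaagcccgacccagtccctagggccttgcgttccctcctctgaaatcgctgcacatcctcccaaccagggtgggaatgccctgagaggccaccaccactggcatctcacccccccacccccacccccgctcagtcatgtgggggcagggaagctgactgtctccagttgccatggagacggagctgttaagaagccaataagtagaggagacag
Trpm5 (chr7:143094593-143094892, minus strand): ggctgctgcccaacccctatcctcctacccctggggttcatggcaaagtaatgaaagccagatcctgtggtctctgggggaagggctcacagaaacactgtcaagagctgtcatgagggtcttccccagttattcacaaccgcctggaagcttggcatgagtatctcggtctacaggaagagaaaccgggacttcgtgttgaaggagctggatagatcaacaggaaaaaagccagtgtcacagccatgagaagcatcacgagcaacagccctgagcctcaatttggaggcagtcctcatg
The octamer starts 174 bases before the start of Hpgds and 48 bases before that of Sucnr1, on the strand of the gene in both. The other 6 windows do not hold these letters. A match is a description of the window and was not tied to any binding measured here.

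All 8 genes had counts in all 20 mice, although Gfi1b was at or under 3 counts in 4 mice and Sucnr1 in 1, and their levels differed widely. Per kilobase of exon, Sh2d6 stood highest with 6.6 ± 1.33 CPM (SD, n = 20), and it was separated from the next gene by more than the spread between mice. Avil (1.32 ± 0.377) and Trpm5 (1.31 ± 0.267) followed at levels that did not differ beyond their spread. Pou2f3 (0.644 ± 0.254), Dclk1 (0.600 ± 0.0980), and Hpgds (0.493 ± 0.128) came next, and each overlapped its neighbour within 1 SD. Sucnr1 (0.294 ± 0.123) and Gfi1b (0.163 ± 0.133) stood lowest, and their ranges of mean ± SD overlapped too. This order depends on the length used, since Dclk1 has 21795 bases of merged exon but a longest transcript of 9018 bases. Per kilobase of the longest transcript, Sh2d6 (8.08 CPM) was again the highest, Trpm5 (2.04) was above Dclk1 (1.45) and Avil (1.43), and Gfi1b (0.163) was again the lowest.

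Before correction for length, the 2 transcription factors were among the less abundant members. Their means over the 20 mice were 2.06 CPM (Pou2f3) and 0.297 CPM (Gfi1b). Per kilobase of exon, Pou2f3 stood beside Dclk1 and Hpgds. The levels of Pou2f3 in mice 1 to 5 were 2.21, 3.03, 2.14, 0.806, and 2.58 CPM on 0% RPS and 1.22, 1.95, 3.24, 1.67, and 2.72 CPM on 2% RPS. They were 2.00, 1.99, 1.14, 3.65, and 1.41 CPM on 5% RPS and 1.36, 0.981, 1.64, 3.25, and 2.21 CPM on 10% RPS. The 4 diets overlapped over most of their range, and a low and a high mouse stood in every diet, for example mouse 4 (0.806 CPM) and mouse 2 (3.03 CPM) on 0% RPS. With 10% RPS the log2 fold change of Pou2f3 against 0% RPS was -0.20 (SE 0.37, 95% interval -0.97 to 0.57).

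Gfi1b, which also acts in megakaryocytes and erythroid cells, was the least abundant member, with 1 to 31 counts per mouse. Its counts were 4, 1, 8, 1, and 6 on 0% RPS and 3, 4, 31, 5, and 6 on 2% RPS, or 0.130, 0.0398, 0.300, 0.0336, and 0.172 CPM and 0.146, 0.139, 0.929, 0.161, and 0.140 CPM. On 5% RPS the counts were 3, 13, 6, 10, and 6 (0.0822, 0.374, 0.381, 0.315, and 0.283 CPM) and on 10% RPS they were 13, 10, 12, 19, and 9 (0.453, 0.258, 0.379, 0.895, and 0.338 CPM). In 4 of the 5 mice fed with 10% RPS, Gfi1b was higher than in any mouse fed with 0% RPS, and 1 mouse (0.258 CPM) fell below the highest control (0.300 CPM). In 4 of the 20 mice, 2 of them on 0% RPS, it was at or under 3 counts. The mean level was 0.135 ± 0.110 CPM (SD, n = 5) on 0% RPS and 0.465 ± 0.251 CPM on 10% RPS, a log2 fold change of 1.71 (SE 0.63, 95% interval 0.39 to 3.03). The unadjusted p of this difference was 0.0136, and its adjusted p over all genes was 0.149 (edgeR), so it was not past the threshold. The fold change rests on few counts, 20 in all on 0% RPS and 63 on 10% RPS. Summed levels of a megakaryocyte and platelet list (Pf4, Itga2b, Gp9, Ppbp, and Gp1bb) ranged from 4.5 to 6.61 CPM in the controls and from 5.25 to 7.27 CPM with 10% RPS, and Gp9 had 0 counts in 7 of the 20 mice and Ppbp in 5. Those of an erythroid list ranged from 7.17 to 17.4 CPM in the controls and from 4.83 to 10.3 CPM with 10% RPS. The part of these cells in the level of Gfi1b was not tested.

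The receptor Sucnr1, through which tuft cells sense succinate, was also near the lower limit, with 2 to 26 counts per mouse. Its levels in mice 1 to 5 were 0.586, 0.319, 0.413, 0.470, and 0.258 CPM on 0% RPS and 0.0973, 0.487, 0.389, 0.836, and 0.582 CPM on 2% RPS. On 5% RPS they were 0.548, 0.432, 0.825, 0.472, and 0.565 CPM, and on 10% RPS 0.349, 0.336, 0.253, 0.895, and 0.563 CPM. The lowest mouse of all, mouse 1 on 2% RPS, had 2 counts, and the highest was mouse 4 on 10% RPS. All diets overlapped, and the log2 fold change with 10% RPS was 0.19 (SE 0.41, 95% interval -0.67 to 1.05). An interval this wide holds changes of up to 2.06-fold upward and down to 0.629 of the control level.

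Trpm5, the channel downstream of the receptors, was measured with 133 to 368 counts per mouse. In mice 1 to 5 its levels were 10.2, 10.6, 8.63, 6.95, and 6.05 CPM on 0% RPS and 7.83, 6.85, 10.6, 7.39, and 7.38 CPM on 2% RPS. They were 7.81, 8.78, 8.82, 11.6, and 6.27 CPM on 5% RPS and 7.98, 5.47, 9.01, 10.3, and 9.60 CPM on 10% RPS. The means of the 4 diets lay between 8.02 and 8.65 CPM, and the range of each diet covered the means of the others. Its log2 fold change with 10% RPS was -0.0050 (SE 0.19), and its 95% interval of -0.41 to 0.40 lay within a 1.5-fold change in either direction.

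Hpgds, which makes prostaglandin D2 in tuft cells and also in mast cells and macrophages, had 3.86 ± 1.15 CPM on 0% RPS and 4.52 ± 0.669 CPM on 10% RPS (SD, n = 5). Its levels were 4.20, 5.65, 3.56, 2.65, and 3.21 CPM on 0% RPS and 2.29, 3.10, 5.90, 3.28, and 3.33 CPM on 2% RPS. On 5% RPS they were 3.97, 3.48, 3.81, 4.59, and 2.54 CPM and on 10% RPS 4.46, 3.43, 4.58, 5.14, and 4.99 CPM. On 2% RPS mouse 3 stood far above the other 4, and no mouse fed with 10% RPS exceeded the highest control. The log2 fold change with 10% RPS was 0.23 (SE 0.23, 95% interval -0.25 to 0.71).

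The kinase gene Dclk1 had the highest counts of the 8 genes before correction for length, and its levels also varied least between mice of a diet. In mice 1 to 5 they were 13.0, 14.1, 12.4, 9.77, and 8.98 CPM on 0% RPS and 12.9, 12, 12.8, 12.7, and 11.5 CPM on 2% RPS. On 5% RPS they were 13.3, 13.4, 16.7, 14.1, and 13.4 CPM, and on 10% RPS 13.4, 10.4, 16, 17.9, and 13.0 CPM. On 5% RPS, 1 mouse exceeded every control, and on 10% RPS 2 mice did so, while mouse 2 on 10% RPS (10.4 CPM) stood among the lower controls. The mean was 11.6 ± 2.18 CPM on 0% RPS, 14.2 ± 1.47 on 5% RPS, and 14.1 ± 2.88 on 10% RPS. The log2 fold change was 0.28 with 5% RPS (SE 0.14, 95% interval -0.0039 to 0.57) and 0.28 with 10% RPS (SE 0.14, 95% interval -0.0092 to 0.56), with adjusted p values of 0.387 and 0.272 (edgeR). Dclk1 is also made by enteric neurons, and the summed level of 7 neuronal genes ranged from 56.3 to 124 CPM in the controls and from 47.7 to 80.8 CPM with 10% RPS. The part of neurons in the level of Dclk1 was not tested.

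Of the other 2 members, Avil had levels of 5.40, 4.18, 3.41, 2.79, and 5.71 CPM on 0% RPS and 4.48, 4.38, 7.22, 3.28, and 3.98 CPM on 2% RPS. On 5% RPS it had 3.32, 3.71, 3.81, 6.67, and 4.71 CPM, and on 10% RPS 3.73, 2.56, 4.96, 6.22, and 5.33 CPM. Mouse 3 on 2% RPS and mouse 4 on 5% RPS, both with a high mitochondrial share, held the highest levels of Avil. The adaptor-like gene Sh2d6 had 13.7, 11.8, 11.1, 8.39, and 10.2 CPM on 0% RPS and 10.2, 8.38, 15.8, 10.8, and 9.12 CPM on 2% RPS. Its levels were 11.5, 9.33, 12.4, 14.2, and 10.9 CPM on 5% RPS and 11.4, 7.28, 10.4, 15.2, and 11.2 CPM on 10% RPS. For both genes the ranges of all 4 diets overlapped, and for Sh2d6 mouse 3 on 2% RPS was the highest of all mice and mouse 2 on 10% RPS the lowest. For 10 against 0% RPS the log2 fold change of Avil was 0.077 (SE 0.26, 95% interval -0.47 to 0.63) and that of Sh2d6 was 0.0055 (SE 0.19, 95% interval -0.39 to 0.40).

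**Figure D1:**
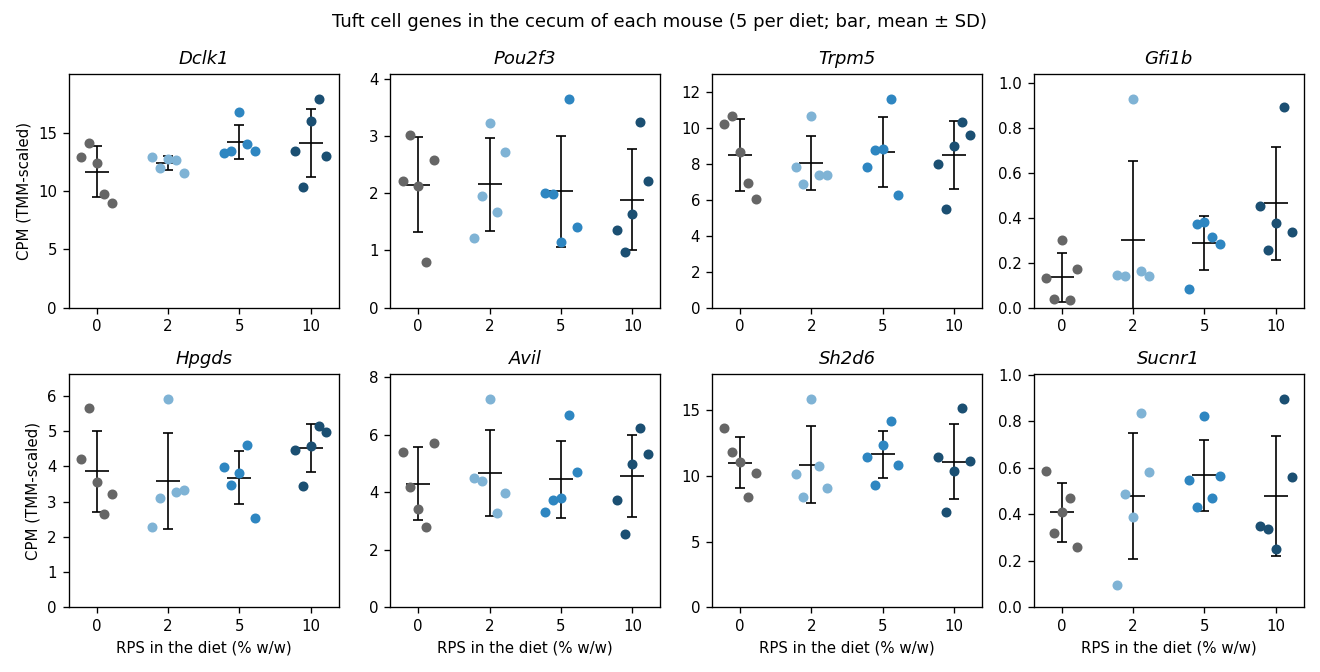
Level of each of the 8 tuft cell genes (CPM scaled by TMM, vertical axes from 0) in each mouse, by the percentage of RPS in the diet. Points are mice, the horizontal bar is the mean, and the error bar is ± SD (n = 5). The diets overlap for every gene, and mouse 3 on 2% RPS stands apart for Gfi1b (0.929 CPM, the next mouse at 0.161 CPM).

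The 3 RPS diets were each compared with 0% RPS to ask whether RPS changed these genes in the cecum. The threshold was set at an adjusted p of at most 0.05 and a fold change of at least 1.5 in edgeR's quasi-likelihood test. In no comparison did any of the 8 genes pass it. DESeq2 also gave 0, but it gave Gfi1b no adjusted p with 10% RPS. Of all 15348 genes, 1.04% were past the threshold in edgeR with 10% RPS, 0.195% with 5% RPS, and 0% with 2% RPS. With 10% RPS, 1 of the 8 genes (Gfi1b) had an unadjusted p under 0.05, against 19.5% of all genes. With 5% RPS and with 2% RPS, 0 of the 8 had one, against 13.3 and 5.77% of all genes. For 0 of the 8 genes were the mice fed with 10, 5, or 2% RPS wholly separated from the controls, against 4.88, 3.57, and 1.09% of all genes. The estimates were higher for 6 and lower for 2 of the 8 genes with 10% RPS, and their median log2 fold change was 0.13, against 0.0041 over all genes. The medians were 0.063 with 5% RPS and 0.052 with 2% RPS, against -0.0018 and 0.0035 over all genes. These comparisons share the control mice.

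The intervals give the sizes of change that the data allow. With 10% RPS the 95% intervals of Dclk1, Trpm5, and Sh2d6 lay wholly within a 1.5-fold change, 3 of the 8 genes against 60.5% of all genes. With 5% RPS and with 2% RPS those of Dclk1, Trpm5, Hpgds, and Sh2d6 did so, 4 of the 8 against 63.5 and 67.7% of all genes. For Pou2f3, Gfi1b, Avil, and Sucnr1 the interval reached past a 1.5-fold change in all 3 comparisons.

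**Figure D2:**
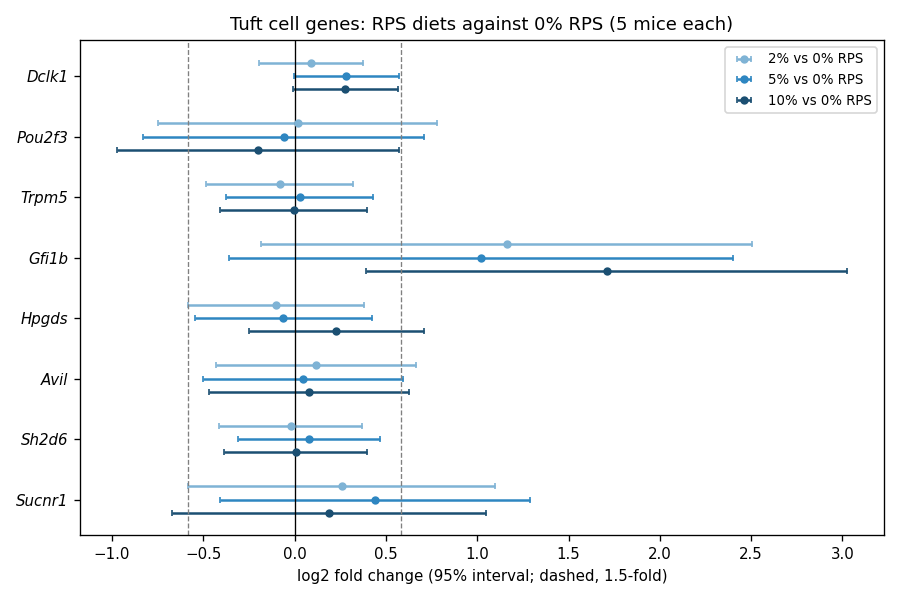
Log2 fold change of each tuft cell gene on 2, 5, and 10% RPS against 0% RPS (horizontal axis), with 95% intervals from edgeR. The solid line marks no change and the dashed lines a 1.5-fold change. The interval of Gfi1b with 10% RPS (0.39 to 3.03) is the only one that leaves the line of no change, and its adjusted p was 0.149.

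The graded doses allowed a straight line to be fitted to the RPS content. An adjusted p of at most 0.05 was reached by 0 of the 8 genes (edgeR and DESeq2), against 1.11% of all genes in edgeR. An unadjusted p under 0.05 was reached by 2, against 18.8% of all genes. These were Gfi1b, with a slope of 0.13 on the log2 scale per percent RPS (SE 0.056, adjusted p = 0.221), and Dclk1, with a slope of 0.028 (SE 0.013, adjusted p = 0.236). The trend of Gfi1b passed when mouse 3 on 2% RPS was left out, alone or together with the other 2 libraries of high mitochondrial share, so that its call depends on this mouse. When the 4 diets were tested for any difference, 0 of the 8 genes passed (edgeR and DESeq2), against 0.0912% of all genes in edgeR. Here 0 of the 8 had an unadjusted p under 0.05, against 11.1% of all genes, and the lowest adjusted p was 0.559, for Gfi1b.

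Within the diets, the levels of most of the 8 genes rose and fell together from mouse to mouse. After subtraction of each diet's mean log2 CPM, which leaves the differences between mice fed alike, 27 of the 28 pairs had a positive Pearson r over the 20 mice, against 49.8% of all pairs of tested genes. The median r of the 28 pairs was 0.52, and the median of all pairs of tested genes was -0.0023. By permutation of mice within diets (100000 permutations, two-sided, adjusted over the 28 pairs), 14 pairs had an adjusted p of at most 0.05 by Pearson's r and 11 by Spearman's rho. The lowest r among the 14 was 0.51, and 15 of the 28 pairs were at or above it, against 9.08% of all pairs of tested genes, which were not themselves tested by permutation.

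The closest pair was Trpm5 and Hpgds, the channel and the prostaglandin D synthase, with r = 0.80 (permutation p = 9e-05, adjusted p = 0.00252) and rho = 0.84 (permutation p = 8e-05, adjusted p = 0.0014). Without the 2 mice farthest from the median of Trpm5, r was 0.82. Trpm5 and Sh2d6 followed with r = 0.79 (permutation p = 0.0004, adjusted p = 0.00485) and rho = 0.84 (permutation p = 0.00013, adjusted p = 0.0014), and r was 0.77 without the 2 farthest mice. Pou2f3 and Hpgds had r = 0.75 (permutation p = 0.00052, adjusted p = 0.00485) and rho = 0.74 (permutation p = 0.00063, adjusted p = 0.00441), and r was 0.68 without the 2 farthest mice. Dclk1 covaried with Trpm5 at r = 0.74 (permutation p = 0.0017, adjusted p = 0.0068), with rho = 0.72 (permutation p = 0.00252, adjusted p = 0.0111) and r = 0.64 without the 2 farthest mice. Of the 15 pairs among the 6 genes other than Gfi1b and Sucnr1, 12 passed, and their median r was 0.66. The 3 that did not were Dclk1 with Pou2f3 (r = 0.35), Dclk1 with Avil (r = 0.37), and Hpgds with Avil (r = 0.53, adjusted permutation p = 0.0514). Over the 14 pairs that passed, r without the 2 farthest mice was between 0.41 (Gfi1b with Avil) and 0.82.

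Sucnr1 was the exception, and 0 of its 7 pairs passed, with r between -0.025 (with Avil) and 0.26 (with Hpgds). The lowest unadjusted permutation p of its pairs was 0.309. Its counts were low, and counting error computed from the raw counts gives a log2 SD of 0.45 for Sucnr1. The SD observed between mice of a diet was 0.62. For Gfi1b these values were 0.71 and 0.77. The observed SD used a prior count of 2, which narrows the spread of low counts, and the counting SD used none. For these low counts they are thus not on the same scale, and the share of counting error cannot be read from them. For Gfi1b 2 pairs passed, with Sh2d6 (r = 0.62, adjusted permutation p = 0.0291) and with Avil (r = 0.57, adjusted permutation p = 0.0363). Neither passed by Spearman's rho, which was 0.50 with Sh2d6 (adjusted permutation p = 0.0745) and 0.53 with Avil (adjusted permutation p = 0.0601). For the other 6 genes counting error was a smaller part of the spread, for example 0.083 of 0.31 for Sh2d6 and 0.21 of 0.63 for Pou2f3. The part of counting error in the correlations of Sucnr1 was not tested.

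**Figure D3:**
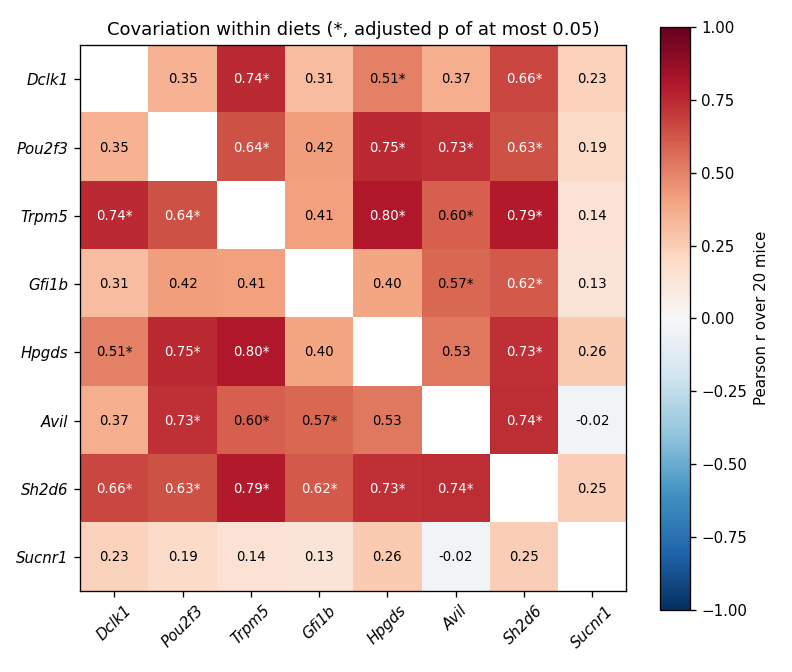
Pearson r of the log2 CPM of each pair of tuft cell genes over the 20 mice after subtraction of the diet means (colour scale -1 to 1, values printed). Asterisks mark an adjusted permutation p of at most 0.05. The row of Sucnr1 holds no asterisk, and the highest value is 0.80 for Trpm5 and Hpgds.

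In some mice nearly all members lay on the same side of the diet mean. On 10% RPS, mouse 4 had all 8 genes above and mouse 2 had all 8 below the mean of the diet, by 0.58 and -0.55 on the log2 scale on average. On 0% RPS, mouse 1 had all 8 above (0.27 on average) and mouse 4 had 7 of 8 below (-0.47), Sucnr1 being higher. On 2% RPS, mouse 3 had 7 of 8 above (0.61), Sucnr1 being lower. The number of pairs that passed fell from 14 to 8 without mouse 3 on 2% RPS or without mouse 2 on 10% RPS, and to 9 without mouse 4 on 0% RPS or without mouse 4 on 10% RPS, while the median r over all such omissions of 1 mouse was 0.40 to 0.59.

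**Figure D4:**
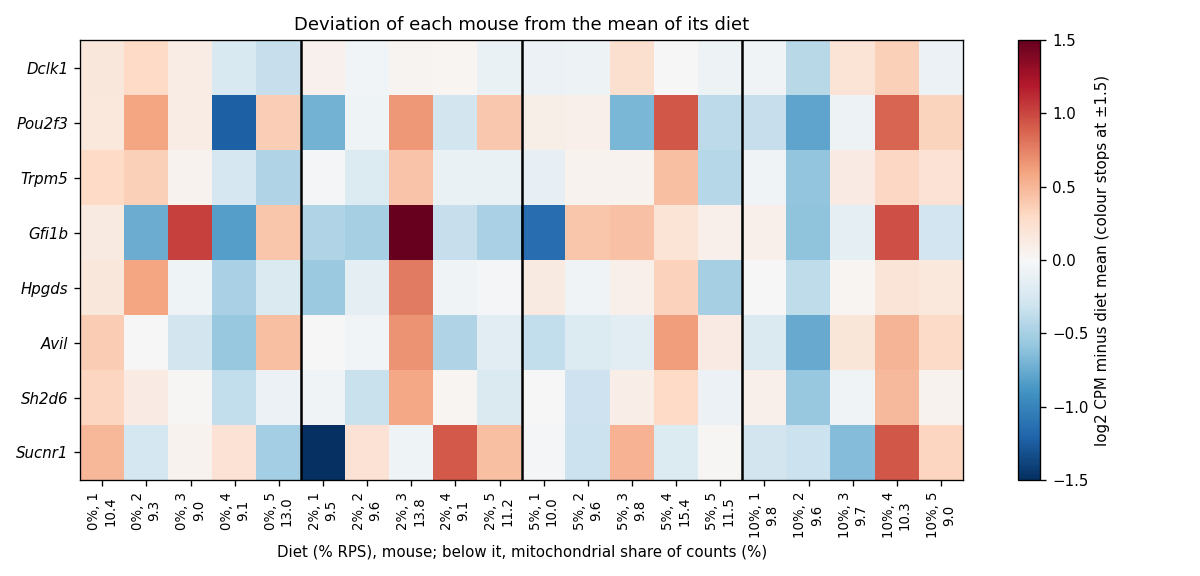
Deviation of each tuft cell gene from the mean of its diet on the log2 CPM scale (colour, limited at ± 1.5), for each mouse in columns grouped by diet. The second line under each column is the share of counts from mitochondrial genes in percent. Mouse 4 on 10% RPS is above its diet mean for all 8 genes and mouse 2 on 10% RPS below it for all 8.

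The covariation moved with other features of the libraries. Over the 20 mice and after subtraction of the diet means, the mean of the 8 genes had r = 0.49 (rho = 0.43) with the mitochondrial share and r = -0.13 (rho = -0.17) with the log2 total count. Avil (r = 0.72) and Pou2f3 (r = 0.57) had the highest r with the mitochondrial share, and Dclk1 (r = -0.15) and Sucnr1 (r = -0.11) had r below 0. Without the 3 libraries of high mitochondrial share the median r was 0.52, and 6 pairs passed. With the mitochondrial share regressed out the median r was 0.51, and 11 pairs passed. The first principal component of all other tested genes, which held 27.4% of their variance within diets, had r = 0.73 with the mean of the 8 genes. With this component regressed out, the median r fell to 0.23, and 0 pairs passed, with 3 pairs at an unadjusted permutation p of at most 0.05.

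Among the 15340 other tested genes, those whose pattern was most like the mean of the 8 genes included Pecam1 (r = 0.86), Ppm1m (0.86), Proz (0.85), Foxj1 (0.84), C1ra (0.84), Slc3a2 (0.84), Matk (0.84), and Pik3r5 (0.83), over 20 mice after subtraction of the diet means. Pecam1 encodes an adhesion molecule of endothelium and leukocytes, Pik3r5 encodes a kinase subunit of myeloid and lymphoid cells, and Matk is also expressed by tuft cells. Without the subtraction, Slc3a2 was no longer among the top 10, and C1s1 and Icam1 were. With the mitochondrial share, the r of these 8 genes ranged from 0.27 (Proz) to 0.71 (Slc3a2). Without the 3 libraries of high mitochondrial share, their r with the mean of the members ranged from 0.72 (Pik3r5) to 0.89 (Slc3a2), and Slc3a2 alone of these 8 remained among the 10 most similar genes.

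Lists of marker genes were set beside the members in the same way. The 8 genes had a median r of 0.69 with the mean of the other 7, and the median over all genes was -0.0091. Of 16 further epithelial tuft cell genes 12 were tested, and their median r with the mean of the 8 genes was 0.42, led by Matk (0.84), Plcg2 (0.73), and Spib (0.72), which leukocytes also express. For Rgs13, a regulator of G protein signalling, r was 0.38, and for Chat, the choline acetyltransferase, it was 0.46. The 6 genes of taste-type signalling had a median r of 0.18, and only Plcb2 (0.63), the phospholipase C of this cascade, was above the 95th percentile of single genes (0.61). The 10 tested genes that tuft cells share with leukocytes had a median r of 0.72, and the lowest r was 0.60. Without the 3 libraries the medians were 0.67 for the members, 0.57 for the further epithelial tuft cell genes, 0.14 for taste-type signalling, and 0.59 for the genes shared with leukocytes.

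Marker genes of leukocytes also had positive medians. The median r with the mean of the 8 genes was 0.75 for 5 mast cell genes and 0.61 for 6 B cell genes. For 8 macrophage genes, 6 of them positive and Mrc1 the lowest at -0.30, the median was 0.57. The median was 0.49 for 5 T cell genes. It was -0.17 for 8 general epithelial genes, 0.0069 for 5 fibroblast genes, and 0.065 for 5 smooth muscle genes. Other cell types had positive medians too, 0.39 for 5 enteroendocrine genes, led by Chgb (0.62) and Chga (0.56), and 0.35 for 7 enteric neuron genes, all 7 of them positive. Without the 3 libraries of high mitochondrial share the medians were 0.65 for mast cells, 0.43 for B cells, 0.43 for macrophages, and 0.42 for T cells. They were then 0.59 for enteric neurons, 0.15 for enteroendocrine cells, and -0.24 for general epithelium, against 0.022 for all genes. The summed level of the B cell list was 285 CPM in mouse 3 on 2% RPS and 3.20 to 40.1 CPM in the other 4 mice of that diet. On 10% RPS it was 14.3 CPM in mouse 2, in which all 8 members were low, and 219 to 273 CPM in the other 4. On 0% RPS it was 31.0 CPM in mouse 1, in which all 8 members were high, and 203 CPM in mouse 2. The mast cell list of 8 genes includes Kit, Mcpt1, and Mcpt2. It summed to 40.5 to 82.0 CPM on 0% RPS and 43.4 to 89.2 on 2% RPS. The sums were 45.3 to 116 CPM on 5% RPS and 36.6 to 57.1 on 10% RPS. Mouse 3 on 2% RPS and mouse 2 on 10% RPS were the highest and the lowest of their diets. Below the filter were 3 of the 8 genes (Mcpt4, Tpsb2, and Cma1), with 0 counts in 2, 3, and 7 mice. Kit gave more than any other gene of the list, with means of 31.5 CPM on 0% RPS and 34.0 CPM on 10% RPS. The means of Mcpt1 and Mcpt2 were 19.1 and 8.60 CPM on 0% RPS. They were 9.77 and 4.37 CPM on 10% RPS (adjusted p = 0.325 and 0.331, edgeR). The r with the mean of the members was 0.19 for Kit, 0.75 for Mcpt1, and 0.79 for Mcpt2. The part of leukocytes in the covariation of the members was not tested beyond these values.

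**Figure D5:**
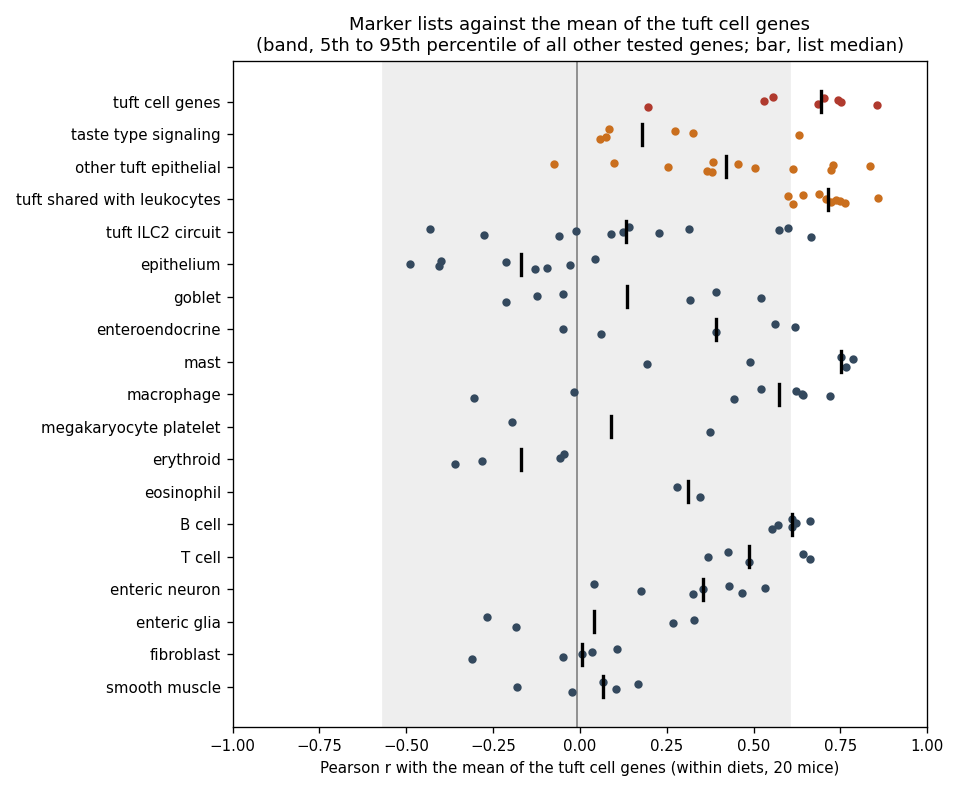
Pearson r of single genes with the mean log2 CPM of the tuft cell genes over the 20 mice, after subtraction of the diet means (horizontal axis), by marker list. Points are genes, black bars are list medians, and the grey band is the 5th to 95th percentile of all other tested genes (-0.57 to 0.61). For the tuft cell genes themselves the mean of the other 7 was used. Medians are 0.69 for the tuft cell genes, 0.75 for mast cells, and -0.17 for general epithelium.

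The other genes of the tuft cell programme were compared between diets from the same lists. Of the 6 taste-type signalling genes 0 were past the threshold with 10% RPS (edgeR), against 1.04% of all genes, and 1 had an unadjusted p under 0.05, against 19.5% of all genes. This was Gnat3, the gustducin subunit, with a log2 fold change of 0.56 (SE 0.22, adjusted p = 0.164). The next genes in order of p were Tas1r3 (log2 fold change 0.39, adjusted p = 0.309) and Plcb2 (0.65, adjusted p = 0.337). Of the 12 tested further epithelial tuft cell genes 0 were past it, and 3 had an unadjusted p under 0.05, all with higher estimates, against 19.5% of all genes in either direction and 9.74% with a higher estimate. These were Kctd12 (0.56, adjusted p = 0.161), Cd24a (0.18, adjusted p = 0.228), and Plcg2 (1.13, adjusted p = 0.244). Plcg2, which leukocytes also express, ranged from 5.81 to 18.9 CPM on 0% RPS and from 5.70 to 28.8 CPM on 10% RPS. The B cell list summed to 14.3 to 273 CPM on 10% RPS. The part of leukocytes in the estimate of Plcg2 was not tested. The 4 further epithelial tuft cell genes not tested for low counts included Il25, with 0 to 4 counts per mouse. The cytokine by which tuft cells reach ILC2 was thus near the lower limit of these libraries. The others were Il17rb (2 to 16 counts), Hmx2, and Hmx3 (at most 2 counts each).

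Of the 10 genes shared with leukocytes 0 passed with 10% RPS (edgeR), while 4 reached an unadjusted p under 0.05, all with higher estimates, beside 19.5% of all genes in either direction and 9.74% with a higher estimate. The 3 lowest were Vav1 (log2 fold change 0.97, adjusted p = 0.232), Irag2 (0.99, adjusted p = 0.233), and Alox5ap (0.43, adjusted p = 0.234), the last of which encodes a protein of leukotriene synthesis. The 6 B cell genes also had higher estimates, with summed levels from 4.96 to 203 CPM in the controls and from 14.3 to 273 CPM with 10% RPS, and a median log2 fold change of 1.96, and 0 of the 6 reached an unadjusted p under 0.05. The part of B cells in these estimates was not tested.

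In the tuft cell and ILC2 circuit, 12 of 14 genes were tested, and 1 was past the threshold with 10% RPS. Areg, the growth factor amphiregulin that ILC2 and other cells make, was downregulated, with a log2 fold change of -1.63 (SE 0.34, adjusted p = 0.0267, edgeR), against 0.495% of all genes lower past the threshold. It also passed for the trend over the dose (adjusted p = 0.0410). The next genes in order of p were Il1rl1, the receptor of interleukin 33, with a log2 fold change of -1.35 (SE 0.51, adjusted p = 0.160), and Tslp, an epithelial cytokine, with -0.53 (SE 0.24, adjusted p = 0.232). Neither was past the threshold. Il13 and Il5 were below the filter on low counts, with at most 6 and 5 counts per mouse, and Il13 had 0 counts in 8 mice. Retnlb, which interleukin 13 induces in goblet cells, had a log2 fold change of -0.56 (SE 0.32, adjusted p = 0.338). A list of 6 goblet cell genes had a median log2 fold change of -0.54 with 10% RPS. Estimates were higher for 0 of the 6, and 0 passed the threshold (edgeR), against 1.04% of all genes. The part of goblet cells in the estimate of Retnlb was not tested.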

How the data were processed

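The values deposited by the authors were raw counts of reads for each gene in 20 cecum libraries, 1 per mouse. Per the study's methods, reads from 1 end of strand-specific mRNA libraries were trimmed for quality, mapped to GRCm39, and counted in the CLC Genomics Workbench. The annotation release, strand setting, and treatment of reads shared by several genes are not given in the sources used here. Total counts were 14967798 to 42687283 per mouse. Intervals and limits cover counting error and the spread between these mice only, since reads carry no molecular identifiers.

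Gene names came from GENCODE M39, in which 19827 of 19887 identifiers were found. Counts were filtered with filterByExpr (minimum count 10, minimum total 15, by diet), scaled by TMM, and fitted over the 4 diets with edgeR 4.0.16 (robust quasi-likelihood) in R 4.3.3. P values were adjusted over 15348 genes by Benjamini-Hochberg. DESeq2 1.42.0 was an alternative. Log2 CPM used a prior count of 2, and correlations were tested in Python 3.11.15 with numpy 2.4.6 by 100000 permutations within diets. Same-diet libraries were compared in 40 pairs, and no pair agreed within sampling noise (chi-square per degree of freedom 13.6 to 136).

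The members and the marker lists were chosen with earlier results of these data known. Every member is named. From the other tuft cell and ILC2 lists, genes past the threshold and the 3 with the lowest p with 10% RPS are named, and Rgs13, Chat, Matk, Plcg2, Spib, Plcb2, and Retnlb were added after their values were seen. The 10 genes most like the mean of the members were ranked by r, and some of them are not reported here. Alternatives were the scaling, the filter, the robust fit, the 2 diets alone, epithelial, smooth muscle, and mitochondrial covariates, ranked doses, and each mouse or the 3 libraries of high mitochondrial share left out. Alternatives with the mitochondrial share or the first principal component, and the marker lists without the 3 libraries, were chosen after seeing the data.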

Additional observations from a re-analysis of the deposited data

Results flagged for a closer look

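In 4 of 32 groups, each 1 gene in 5 mice of a diet, the extreme mouse stood apart from the others by Dixon's test, for which chance gives about 1 in 20 groups, or 1.6 of 32. For 3 genes the mouse that stood apart was mouse 3 on 2% RPS. It had 0.929 CPM of Gfi1b with the next mouse at 0.161 CPM, 5.90 CPM of Hpgds with the next at 3.33 CPM, and 10.6 CPM of Trpm5 with the next at 7.83 CPM. The mitochondrial share of this library was 13.8% and its B cell list summed to 285 CPM. The other was Dclk1 in mouse 3 on 5% RPS, with 16.7 CPM and the next mouse at 14.1 CPM. That library had the lowest total, 14967798 counts.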

How the results depend on the processing

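The counts of members past the threshold with 10, 5, and 2% RPS and among the 4 diets were 0 under every alternative run. For the linear trend the count was 1 (Gfi1b) without the 3 libraries of high mitochondrial share, and 0 to 1 when single mice were left out, 1 being reached without mouse 3 on 2% RPS. Estimates near 0 changed sign with 10% RPS, none past the threshold. The log2 fold change of Trpm5 was 0.0040 with no filter, 0.0017 with at least 10 counts in every mouse, 0.0022 with only the 2 diets, 0.074 with the smooth muscle covariate, and 0.011 with the mitochondrial covariate. That of Avil was -0.066 with the epithelial and -0.14 with the smooth muscle covariate, and that of Sh2d6 was -0.088 with the epithelial covariate, -0.014 without the 3 libraries, and -0.00050 by DESeq2. With single mice left out the ranges were -0.092 to 0.12 (Trpm5), -0.055 to 0.23 (Avil), -0.13 to 0.13 (Sh2d6), -0.13 to 0.36 (Sucnr1), 0.19 to 0.37 (Dclk1), -0.48 to -0.033 (Pou2f3), 0.13 to 0.41 (Hpgds), and 1.37 to 2.17 (Gfi1b). Gfi1b and Sucnr1 were not fitted with at least 10 counts in every mouse, Gfi1b was not fitted with the 2 diets alone, and DESeq2 gave Gfi1b no adjusted p. The lowest adjusted p of Gfi1b over the others was 0.0584.

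The median r of the 28 pairs was 0.40 to 0.59 with single mice left out and 0.23 with the first principal component regressed out. The number of pairs that passed was 8 to 16 with single mice left out, 6 without the 3 libraries, and 0 with the component regressed out. The cause was not tested, except that leaving out mice also lowers the number of samples. Without the 3 libraries the median r with the members moved by more than its jackknife error for 4 marker lists, to 0.15 (enteroendocrine), 0.21 (erythroid), 0.33 (enteric glia), and -0.20 (smooth muscle). Low counts limit what can be read for Gfi1b and Sucnr1. No paired analysis was possible because no mouse number in the labels occurs in more than 1 diet.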
